A study of Caenorhabditis elegans with 2 samples.

Results

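The 78 genes described here are named for proteins of the cytosolic ribosome of Caenorhabditis elegans and were set against peaks of the transcription factor SMA-9. They are all the protein-coding genes whose Ensembl WBcel235 name begins with rpl- (47 genes, named for the large subunit) or rps- (31 genes, small subunit), out of 19973 protein-coding genes on the 6 nuclear chromosomes. The rule goes by name alone, and genes of stalk proteins, ubiquitin-fused ribosomal proteins and RACK1 fall outside it. A peak was given to a gene when its summit lay in the gene body or up to 2 kb upstream of it. Peaks came from chromatin immunoprecipitation and sequencing (ChIP-seq) of whole second-stage (L2) larvae of mixed sex, in 1 group with 2 biological replicates. All animals were of strain OP130, genotype unc-119(ed3) III; wgIs130, so both replicates carry the unc-119 mutation and an integrated insertion that expresses sma-9 fused to eGFP. The labels do not state which promoter drives the fusion, and whole larvae mix all tissues.

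Each ribosome has a small subunit, which reads the messenger RNA, and a large subunit, which joins amino acids. Their proteins are made in nearly every cell, from genes that in C. elegans are mostly short and very highly transcribed, and several of these genes carry small nucleolar RNAs (snoRNAs), guides of ribosomal RNA modification, in their introns. SMA-9 is a zinc finger protein related to fly Schnurri that works with the SMADs of the BMP-like Sma/Mab pathway, which sets body size.

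All 4 lists used were in ce11, the same build as WBcel235. The authors' relaxed lists of the pooled reads, replicate 1 and replicate 2 hold 30000 peaks each, of a single width (384, 360 and 384 bp), ranked here by the authors' peak signal with 1 as the strongest. The authors' thresholded list holds 125 peaks, which are the 125 strongest of the pooled list. Peak signal has no stated scale, and its median was 14.1 in the pooled list, 9.50 in replicate 1 and 6.34 in replicate 2, so lists were compared by rank. A relaxed list includes background by design, and its fixed length makes the share of genes with a summit a share at that length, not a count of bound genes. Read depth is unknown from these lists.

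rpl-35 and rpl-3, on chromosome III, had the best pooled ranks, each at a summit upstream of the gene. Sites at rpl-20 on chromosome IV, whose best-ranked site differed between the replicates, and at rpl-11.2 on chromosome X were also among the 10 best. The DNA at these 5 sites is shown, since several ranks given below rest on them; windows that overlap an annotated UTR, as at rps-8, are left out. Each line is 200 bases centred on a pooled summit, on the plus strand of WBcel235, 5′ to 3′, read from the RefSeq assembly of that build. Capitals mark GAGAGA and GTCT, a short motif bound by SMADs, on either strand (as TCTCTC and AGAC on the other).
rpl-35, III:7854682-7854881, between genes: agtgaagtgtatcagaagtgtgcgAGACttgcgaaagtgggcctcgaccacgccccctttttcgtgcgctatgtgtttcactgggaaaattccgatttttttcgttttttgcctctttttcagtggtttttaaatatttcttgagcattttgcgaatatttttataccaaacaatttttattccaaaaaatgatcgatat
rpl-3, III:3867447-3867646, between genes: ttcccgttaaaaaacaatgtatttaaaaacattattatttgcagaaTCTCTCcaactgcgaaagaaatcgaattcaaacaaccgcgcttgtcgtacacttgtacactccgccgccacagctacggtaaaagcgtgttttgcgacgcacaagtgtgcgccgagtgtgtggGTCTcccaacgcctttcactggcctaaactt
rpl-11.2, X:2242902-2243101, between genes: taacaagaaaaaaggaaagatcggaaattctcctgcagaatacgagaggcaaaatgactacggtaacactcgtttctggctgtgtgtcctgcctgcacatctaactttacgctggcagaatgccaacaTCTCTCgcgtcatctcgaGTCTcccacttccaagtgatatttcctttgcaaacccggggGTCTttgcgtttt
rpl-20, IV:4749312-4749511, own coding exon: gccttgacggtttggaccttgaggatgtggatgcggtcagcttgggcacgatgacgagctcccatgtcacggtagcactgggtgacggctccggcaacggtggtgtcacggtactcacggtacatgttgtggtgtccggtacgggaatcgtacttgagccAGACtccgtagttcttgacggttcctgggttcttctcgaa
rpl-20, IV:4749949-4750148, between genes: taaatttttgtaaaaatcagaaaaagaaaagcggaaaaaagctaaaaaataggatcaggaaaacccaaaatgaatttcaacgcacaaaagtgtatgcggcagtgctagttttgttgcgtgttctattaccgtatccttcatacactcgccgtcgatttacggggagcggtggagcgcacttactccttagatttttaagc
The rpl-3 and rpl-11.2 sites hold both motifs, the rpl-35 site and the exon site of rpl-20 hold GTCT alone, and the upstream site of rpl-20 holds neither. The GC content of these windows was 37.0%, 45.5%, 46.5%, 57.5% and 39.0% in the order shown.

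Ribosomal protein genes had a pooled summit less often than protein-coding genes at large. Of the 78 members, 36 (46.2%, exact 95% interval 34.8% to 57.8%) had at least 1 pooled summit, against 73.2% of all protein-coding genes. In replicate 1 the count was 31 (39.7%), against 72.9%, and in replicate 2 it was 49 (62.8%), against 73.9%. The members' share thus differed by more between the replicates than the share of all genes did, and it was below that of all genes in all 3 lists. The exact intervals were 28.8% to 51.5% in replicate 1 and 51.1% to 73.5% in replicate 2. These shares are not matched for window length, which is shorter for members. Intervals cover counting error over genes only, and no test was made because there is 1 group.

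Members are short, which leaves less room for a summit. Their median length was 753.5 bp (276 to 1734 bp), against 2027 bp for all protein-coding genes, and the median window was 2753.5 bp, against 4027 bp. Per kb of window the members had 0.216 pooled summits, against 0.299 for all genes. The density was 0.188 per kb in replicate 1, against 0.297, and 0.280 per kb in replicate 2, against 0.304. Replicate 2 therefore put the members close to the density of all genes, and replicate 1 did not.

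With the same 2 kb upstream for every gene and the body left out, 28 members (35.9%) had a pooled summit, against 48.1%. Here 24 members (30.8%) had one in replicate 1, against 48.9%, and 36 (46.2%) in replicate 2, against 47.0%. At the start itself, from 500 bp upstream to 200 bp downstream, 14 members (17.9%) had a pooled summit, against 21.2%. The replicates gave 17 members (21.8%), against 21.5%, and 11 members (14.1%), against 20.1%, at the start, so the members lay on both sides of the background there. In the gene body alone, 11 members (14.1%) had a pooled summit, against 50.2% of the longer genes.

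**Figure D1:**
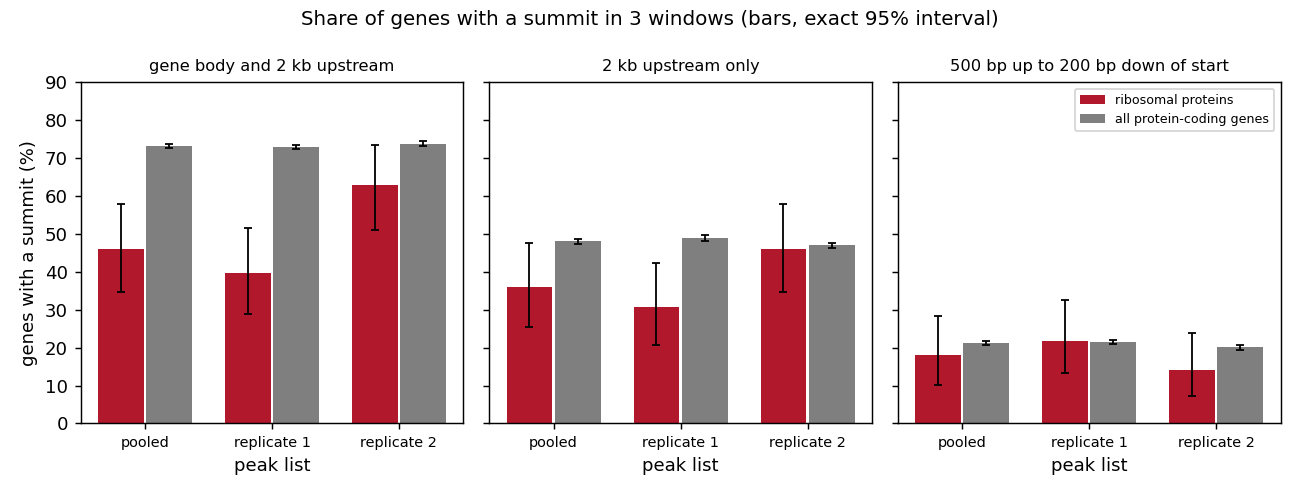
Share of genes (%, vertical axis) with a summit in each peak list (horizontal axis), for ribosomal protein genes (red, n = 78) and all protein-coding genes (grey, n = 19973), in 3 windows; error bars are exact 95% intervals. The gap between the red and grey bars is widest for the gene body with 2 kb upstream (46.2% against 73.2%, pooled) and small at the start (17.9% against 21.2%, pooled).

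In the pooled list 21 of 47 large-subunit genes (44.7%) and 15 of 31 small-subunit genes (48.4%) had a summit, with exact intervals of 30.2% to 59.9% and 30.2% to 66.9%. Replicate 1 gave 40.4% of large-subunit and 38.7% of small-subunit genes. In replicate 2 the shares lay farther apart, 68.1% (52.9% to 80.9%) and 54.8% (36.03% to 72.7%). For the 2 kb upstream alone, large-subunit and small-subunit shares were 55.3% and 32.3% in replicate 2, where all genes had 47.0%. The pooled list gave 36.2% and 35.5% there, and replicate 1 gave 29.8% and 32.3%. By chromosome, the share of members with a pooled summit was 34.8% of 23 genes on chromosome I, 40.0% of 10 on chromosome II, 61.1% of 18 on chromosome III, 58.8% of 17 on chromosome IV and 2 of the 8 genes on chromosome V. The X chromosome carries 2 members, of which rpl-11.2 had 3 pooled summits. On each of the 6 chromosomes the members' share was below that of all its protein-coding genes, which ran from 68.5% to 83.3%. Among genes of the 5 autosomes, chosen after the values were seen, 46.1% of 76 members had a summit, against 71.6%.

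The 36 genes held 47 pooled summits, with 29 genes holding 1, 4 holding 2 and 2 holding 3. rpl-3, which encodes a large-subunit protein near the peptidyl transferase centre, held 4, the most of any member. No pooled peak was given to more than 1 member, although 4 pairs of members have windows that overlap: rpl-39 with rps-30, rpl-24.1 with rps-10, rpl-41.1 with rpl-41.2, and rpl-36 with rps-14. Members with near-identical copies, such as rpl-41.1 and rpl-41.2, are uncertain, since how reads with several matches were placed is not given in the sources used here.

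Few members lay near strong peaks. Among the 5000 strongest pooled peaks, 7 members (8.97%) had a summit, against 20.8% of all protein-coding genes, whose windows are longer. Among the 1000 strongest, 3 members (3.85%) had one, against 4.6%. The thresholded list reached 1 member, rpl-35 (1.28%), against 0.451%. The share of members stood above the background at the 250 strongest peaks (2.56% against 0.976%) and the 500 strongest (3.85% against 2.12%), on counts of 2 and 3 genes. From the 1000 strongest on it stayed below in the pooled list. In replicate 1, 3 members (3.85%) had a summit among the 1000 strongest, against 4.44%, and in replicate 2, 5 members (6.41%) did, against 4.93%. These shares are not matched for window length. In the equal 2 kb upstream, 7.69% of members had a summit among the 5000 strongest pooled peaks, against 9.95%. Replicate 1 gave 10.3% there, against 10.3%, and replicate 2 gave 10.3%, against 9.58%. The gap at the 5000 strongest was thus small or absent in windows of equal length. Over the 36 members with a pooled summit the median best rank was 15013, against 10019 for all genes with one, whose windows are longer. In the equal 2 kb upstream the pooled median was 15013, against 12970. There it was 9134.5 in replicate 1, against 13031.5, and 13248 in replicate 2, against 13099. At the start the pooled median was 8808.5, against 14248.5, so the direction depended on the window. The best signals of the 36 members ran from 36.7 at rpl-35 to 11.2 at rps-2, in a list whose lowest signal is 10.9.

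**Figure D2:**
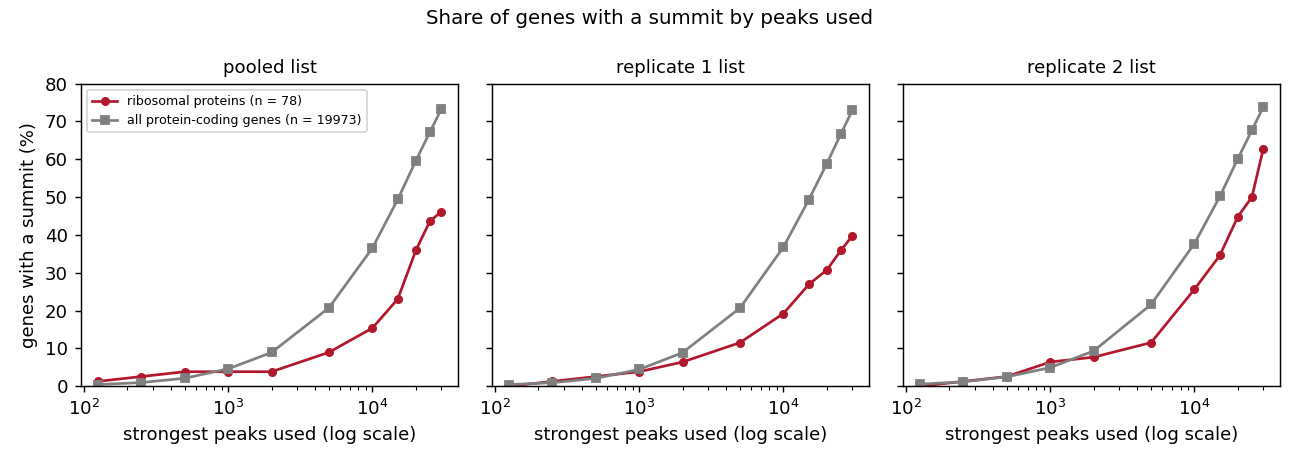
Share of genes (%, vertical axis) with a summit among the strongest peaks of each list, by the number of peaks used (horizontal axis, log scale), for ribosomal protein genes (red circles, n = 78) and all protein-coding genes (grey squares, n = 19973). The curves lie close up to about the 1000 strongest peaks and part after that, ending at 46.2% against 73.2% in the pooled list. Windows are the gene body and 2 kb upstream, so they are shorter for ribosomal protein genes.

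The large-subunit gene rpl-35 (WBGene00004449, III:7855134-7855646, plus strand) was the member with the strongest pooled peak. Its summit ranked 106 with a signal of 36.7 and lay 353 bp upstream of the start, between genes. The site ranked 315 in replicate 1 with a signal of 20.01 and 273 in replicate 2 with a signal of 13.6. rpl-35 was the only member with a summit among the 1000 strongest peaks of both replicates, against 0.801% of all genes, and the lowest signal on the thresholded list was 34.6.

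The summit of rpl-3 (WBGene00004414, III:3867854-3869587, plus strand) ranked 197 with a signal of 30.9, 308 bp upstream of the start and between genes. In replicate 1 this site ranked 131 with a signal of 24.1, ahead of rpl-35, and in replicate 2 it ranked 4447 with a signal of 8.85. The other 3 pooled summits of rpl-3 lay farther upstream, at 819, 1747 and 1966 bp, in the 3′ UTR and coding exons of acs-19, with ranks of 6442, 22518 and 24480.

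rps-8, a small-subunit gene (WBGene00004477, IV:7312958-7313860, minus strand), ranked 394 with a signal of 27.3. Its summit lay 697 bp upstream, in the 3′ UTR of the neighbouring gene F42C5.9, and its rank by the authors' score in column 9 was 11317. The site ranked 12555 in replicate 1 with a signal of 10.01 and 992 in replicate 2 with a signal of 11.5. The replicates thus placed rps-8 far apart in rank at a site with the same summit offset in both.

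A gap in rank separates these genes from the next. rps-23 (IV:12390298-12391053, minus strand), whose protein sits at the decoding centre, ranked 2121 with a signal of 21.5, 953 bp upstream and in a coding exon of dpm-3, a gene of dolichol-phosphate mannose synthesis. The start of dpm-3 was nearer, at 419 bp. rpl-7 (I:111038-112417, plus strand) ranked 2378 with a signal of 21.1, 1120 bp upstream and in a coding exon of rab-11.1, a gene for a GTPase of endosome recycling, whose start lay 139 bp away. In replicates 1 and 2 the rpl-7 site ranked 2395 and 8156. The rps-23 site ranked 4665 and 18424.

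rpl-20 (IV:4749123-4749778, minus strand) ranked 3064 with a signal of 20.2, and its summit lay 367 bp inside the gene, in a coding exon. That exon site ranked 218 in replicate 2 with a signal of 14.1 and 26243 in replicate 1 with a signal of 7.66. The upstream site of rpl-20, 270 bp from the start, ranked 7020 in the pooled list and 1106 in replicate 1 with a signal of 16.5, and no peak of replicate 2 overlapped it. The start of Y17G9B.5 was nearer to that site, at 192 bp. Each replicate thus had a strong peak at rpl-20, at separate places.

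rpl-11.2 (X:2241738-2242618, minus strand) encodes a protein that, in yeast and human cells, binds the 5S ribosomal RNA together with that of rpl-5. It ranked 3671 with a signal of 19.6, 383 bp upstream and between genes, and its site ranked 8078 in replicate 1 and 11467 in replicate 2. rpl-10 (II:8143881-8144671, plus strand), whose protein joins the large subunit late in its assembly in yeast, ranked 5358 in the pooled list and 5442 in replicate 2. The rpl-10 summit lay 785 bp inside the gene in its 3′ UTR, 96 bp from the start of F10B5.2, and replicate 1 had no summit in the window.

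rpl-41.2 ranked 5964 with a summit 419 bp upstream. rps-3, whose protein lines the path by which messenger RNA enters the small subunit, ranked 6248 with a summit 73 bp inside the gene. At its site rps-3 had a peak in replicate 1, ranked 8690, and none in replicate 2. These 10 genes are the members with the best pooled ranks, and 7 of them are among the 5000 strongest peaks.

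**Figure D3:**
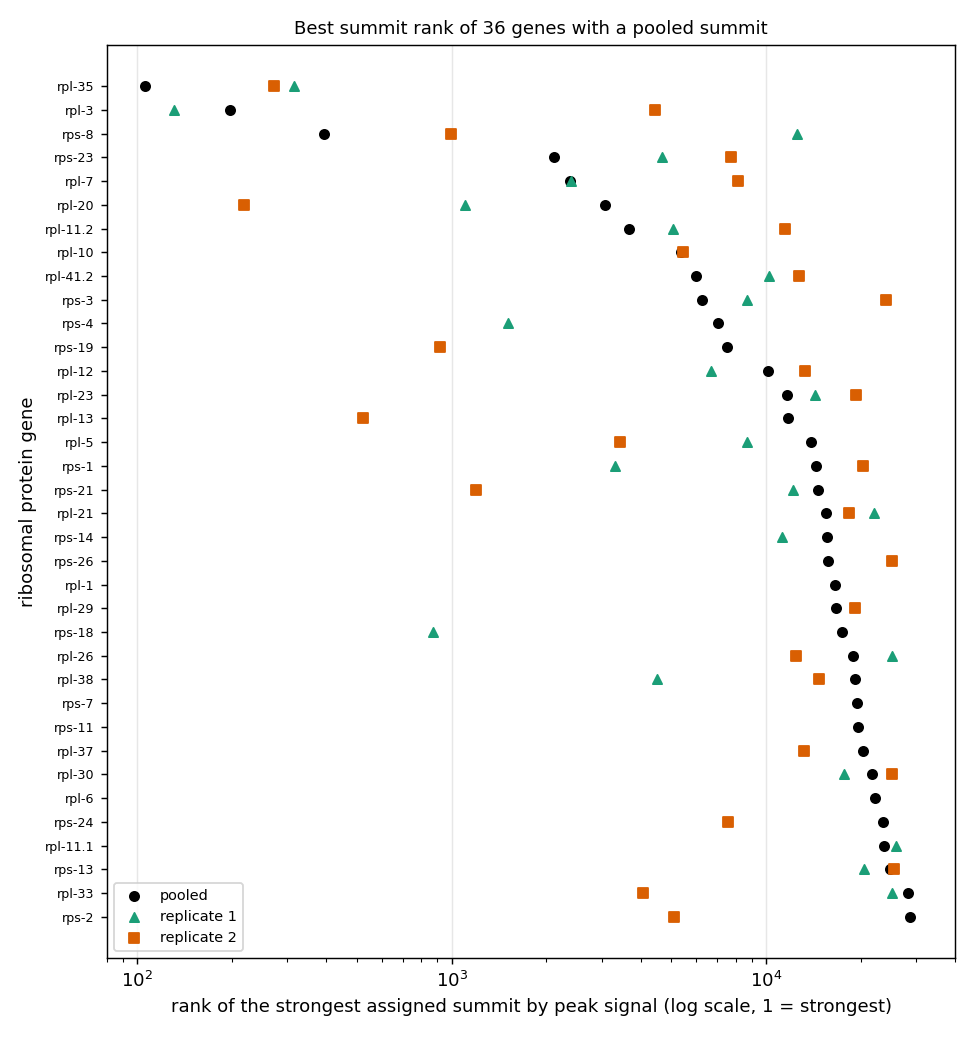
Best rank by peak signal (horizontal axis, log scale, 1 = strongest) of each of the 36 ribosomal protein genes with a pooled summit (vertical axis), in the pooled list (black circles), replicate 1 (green triangles) and replicate 2 (orange squares); a missing marker means no summit in that list. The ranks at rpl-35 lie between 106 and 315, while many other genes show replicate ranks far apart or a single replicate.

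Fewer members than genes at large had a summit in both replicate lists, 25 members (32.1%), against 58.3% of all protein-coding genes. Replicate 1 alone had one at 6 members (7.69%), against 14.7%, and replicate 2 alone at 24 (30.8%), against 15.6%. Neither had one at 23 (29.5%), against 11.5%. These shares use the gene body and 2 kb upstream, a shorter window for members, and are not matched for its length. Among the 5000 strongest peaks of both replicates, 3 members (3.85%) had a summit, against 6.97%, and these were rpl-35, rpl-20 and rpl-3. Counted site by site, 2 pooled peaks, those at rpl-35 and rpl-3, were overlapped by a peak of that strength in both replicates.

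Site by site, the members' peaks were like other pooled peaks in their overlap with the replicates. Of their 47 pooled peaks, 14 (29.8%) overlapped a peak of both replicates by at least 1 bp, against 33.8% of all pooled peaks. Another 16 (34.0%) overlapped replicate 1 alone, against 35.7%, and 13 (27.7%) replicate 2 alone, against 22.9%. The remaining 4 (8.51%) overlapped neither, against 7.58%.

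Of the 7 members with a summit among the 1000 strongest peaks of either replicate, 1 had one in both (14.3%), and among all protein-coding genes it was 160 of 1711 (9.35%). In replicate 2, rpl-13 ranked 522, 1620 bp upstream, and rps-19 ranked 920, 306 bp upstream, and replicate 1 had no summit in either window. In replicate 1, rps-18 ranked 871, 509 bp upstream, and replicate 2 had none. These 3 genes were named after their values were seen, to complete the 7, with rpl-35, rpl-3, rps-8 and rpl-20. Among the 25 members with a summit in both lists, the log2 ratio of the replicate 1 rank to the replicate 2 rank was highest at rps-8 (3.66), rps-21 (3.35) and rpl-33 (2.63), which ranked better in replicate 2. It was lowest at rpl-3 (-5.09), rps-1 (-2.62) and rpl-7 (-1.77), which ranked better in replicate 1. For rps-21 the best summits were at separate places, 239 bp upstream in replicate 1 and 681 bp upstream in replicate 2. For rpl-33 and rps-1 they were separate too.

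Shares of genes without a summit are likewise not matched for window length. The pooled list gave no summit to 42 members (53.8%). Of these, 5 had a summit in both replicates (6.41% of members, against 4.5% of all genes), among them rpl-14 with ranks of 7397 and 17456, at separate places. In all, 23 members (29.5%, against 16.6%) had a summit in at least 1 replicate and none in the pooled list, such as rpl-18, ranked 19294 in replicate 2. The 19 members with none in any list (24.4%, against 10.2% of all genes) were rpl-15, rpl-16, rpl-17, rpl-19, rpl-24.1, rpl-24.2, rpl-27, rpl-34, rpl-36, rpl-39, rpl-42, rpl-43, rps-6, rps-9, rps-10, rps-16, rps-17, rps-22 and rps-30. At the edge of the window, the farthest summit counted lay 1985 bp upstream of rps-7, with rank 19426. The nearest left out upstream lay 2072 bp from rps-5 and 2135 bp from rpl-36, with ranks 26987 and 10464. Past the gene end, pooled summits left out lay 191 bp beyond rps-17, with rank 7602, and 113 bp beyond rpl-15, with rank 20086.

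Where members had a summit, it was upstream of the gene more often than in it. The best pooled summit was upstream at 27 of 36 members (75.0%) and in the body at 9, against 47.3% upstream for all genes with a summit, whose bodies are longer. The median distance of the best summit from the start was 693.5 bp (64 to 1985 bp), against 1143 bp. It lay within 500 bp at 14 members (38.9%), against 23.5%, and within 1 kb at 25 (69.4%), against 44.1%. The closest was 64 bp upstream of rpl-12, ranked 10131. A short gene offers no far sites in its body, so these distances are not matched for gene length. Measured from every start to the nearest pooled summit, whatever gene it belongs to, the median was 1302.5 bp for the members, against 1066 bp. In replicate 1 this was 1688.5 bp, against 1061 bp, and in replicate 2 it was 1266.5 bp, against 1076 bp.

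In bins of 500 bp, the members had 14.1 pooled summits per 100 genes in the 500 bp just upstream of the start, against 16.5. Replicate 1 went the other way there, with 17.9 per 100 members, against 16.7, and replicate 2 had 14.1, against 15.4. The first 500 bp downstream gave 7.69 per 100 members, against 14.4, and both replicates gave 8.97 there, against 14.3 and 15.3. The farthest upstream bin, which ends at 2000 bp, differed most between replicates, with 5.13 per 100 members in replicate 1 and 20.5 in replicate 2, where all genes had 15.5 and 15.1.

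**Figure D4:**
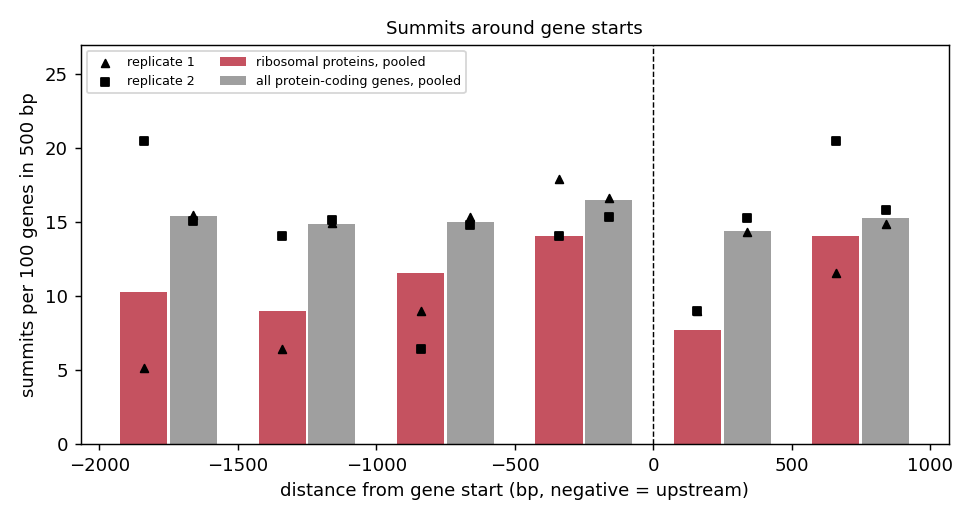
Summits per 100 genes (vertical axis) in 500 bp bins of distance from the gene start (horizontal axis, bp, negative upstream), for ribosomal protein genes (red bars) and all protein-coding genes (grey bars) in the pooled list, with replicate 1 (triangles) and replicate 2 (squares) over each bar. Grey bars are nearly level at 14.4 to 16.5, and red bars reach 14.1 just upstream of the start and 7.69 just downstream of it.

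Many of these summits lay closer to a neighbour than to the member. Another protein-coding start was nearer at 16 of the 36 best summits, so the member's own start was the nearest at 20 (55.6%), against 68.7% of all genes with a summit. Besides dpm-3 and rab-11.1, the nearer starts included hsr-9, 143 bp from the rps-19 summit, and sec-61.A, a subunit of the protein translocation channel, 120 bp from the rps-18 summit. At rps-7 the start of Y106G6G.1 lay 90 bp away. At rpl-13 the start of tppp-1 lay 314 bp from the best pooled summit, whose peak was overlapped by the replicate 2 peak ranked 522. The upstream 2 kb of members lay inside another protein-coding gene over 63.3% of its length on average, against 42.3%, and in coding exons over 37.2%, against 21.1%.

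The features under the summits of members and of all genes differed, and for 3′ UTRs the direction was the same in each replicate. Annotated 3′ UTRs made up 5.94% of the members' windows, against 4.93% of the windows of all genes, and held 9 of 47 pooled summits (19.1%), against 6.08%. This is 0.696 pooled summits per kb of 3′ UTR for the members, against 0.369. In replicate 1 it was 7 summits and 0.541 per kb, against 0.383, and in replicate 2 it was 10 summits and 0.773 per kb, against 0.340, all on few summits. Of the 9 pooled ones, 3 lay in the member's own 3′ UTR (rpl-10, rpl-11.2 and rpl-30) and 6 in that of another gene, at rps-8, rpl-3, rps-4, rps-21, rps-26 and rps-11.

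Coding exons and introns had fewer pooled summits for their length in the members' windows. Coding exons filled 44.1% of the members' windows, against 32.5%, and held 14 pooled summits, 7 in exons of the member itself and 7 in those of other genes. This is 0.146 pooled summits per kb of coding exon for the members, against 0.269. Replicate 1 gave 0.125 per kb, against 0.249, and replicate 2 gave 0.239 per kb, against 0.323. Introns of coding genes held 12.8% of the members' pooled summits, against 38.0%, and filled 19.8% of the windows, against 37.9%. They had 0.139 pooled summits per kb in the members' windows, against 0.299. The intron density was 0.0927 per kb in replicate 1, against 0.302, but 0.325 per kb in replicate 2, against 0.287. Between genes the members had 0.252 pooled summits per kb, against 0.324, with 0.291 in replicate 1, against 0.338, and 0.252 in replicate 2, against 0.30.

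Summits of the members lay near noncoding RNA genes more often than pooled summits in general. Within 200 bp of a gene annotated as snoRNA or ncRNA there were 6 of 47 pooled summits (12.8%), against 4.34% of all pooled summits and 3.64% of those given to any protein-coding gene. Replicate 1 had 6 of 41 (14.6%), against 4.12% of all its summits, and replicate 2 had 5 of 61 (8.20%), against 4.66%. Exons of noncoding RNA genes made up 3.26% of the members' windows, against 1.05%, so the members have more such sequence nearby. Per kb of these exons the pooled density was 0.563 for the members, on 4 summits, against 0.361, and it was 0.141 in each replicate, on 1 summit each, against 0.349 and 0.357.

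The genes behind these 6 summits are few. rpl-11.2 had 2 of them, 114 bp from the ncRNA gene AH9.7 and inside it, with ranks 3671 and 11317. At rpl-5, the summit ranked 13898 lay in an exon of the ncRNA gene F54C9.17, and at rpl-1 the summit ranked 16601 lay in an exon of Y71F9AL.19. At rps-2 it ranked 28728 in the pooled list, in an exon of C49H3.15, and 5082 in replicate 2. The only snoRNA among them was R151.13, inside rpl-6, with a pooled rank of 22121. The sites at rpl-1 and rpl-6 overlapped no peak of either replicate.

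Members hold snoRNA genes more often than other genes do, and members with and without one had a summit equally often. Of the 78 members, 13 (16.7%) hold a snoRNA gene, 19 snoRNA genes in all, against 0.961% of protein-coding genes (192 genes). A pooled summit was found at 6 of these 13 members (46.2%) and at 30 of the 65 members without a snoRNA gene (46.2%). Among all protein-coding genes that hold a snoRNA gene, 81.8% had one, against 73.2% of all protein-coding genes. These shares are not matched for window length, which is shorter for members than for all genes. The 6 members were rpl-6, rpl-7, rpl-26, rps-4, rps-13 and rps-23, and rpl-6 was the one with a summit within 200 bp of its snoRNA gene. A snoRNA gene lay within 200 bp of 1 of the 47 summits (2.13%), against 0.233% of all pooled summits, and within 1 kb of 3 (6.38%), against 0.71%.

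In sequence, the members' sites were a little richer in GC than pooled peaks and held the searched motifs at similar rates. The 200 bases at the 36 best summits had a mean GC content of 37.9% ± 7.54 (SD over sites), with 57.5% at rpl-20 as the highest, against 34.7% ± 6.84 for all pooled summits. The upstream 2 kb had 36.8% ± 3.21, against 35.1% ± 3.50. On either strand, GAGAGA was in 4 windows (11.1%), against 10.4% of all pooled windows, at rpl-3, rpl-11.2, rpl-41.2 and rpl-11.1. GTCT was in 26 (72.2%), against 60.7%, and GATAA in 14 (38.9%), against 40.2%. TATAAA was in 7 (19.4%), against 23.4%, TTTTTTTT in 6 (16.7%), against 22.4%, and GGCGCC in 1 (2.78%), against 1.27%. CACGTG was in 0 of 36 windows, which allows a share of up to 8.33%, and in 3.39% of all pooled windows.

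Other genes of the translation machinery were counted in the same way, beside the 73.2% of all protein-coding genes with a pooled summit and the 20.8% with one among the 5000 strongest. Mitochondrial ribosomal protein genes (mrpl- and mrps-) had a pooled summit at 35 of 70, with 0.189 summits per kb and 5 genes (7.14%) at the 5000 strongest. Initiation and elongation factor genes had one at 23 of 39 (59.0%), with 0.232 per kb. Of them 10 (25.6%) were at the 5000 strongest peaks, a share nearer to that of all genes than the 8.97% of ribosomal protein genes. These shares are not matched for window length, whose median was 4152 bp for the factor genes and 2753.5 bp for ribosomal protein genes. Aminoacyl-tRNA synthetase genes, which are long, had one at 26 of 32 (81.3%), with 0.226 per kb and 3 genes (9.38%) at the 5000 strongest. The 6 genes of stalk proteins, ubiquitin-fused ribosomal proteins and RACK1 outside the naming rule had one at 2 (33.3%). All 4 groups had fewer pooled summits per kb than the 0.299 of all protein-coding genes, including the stalk group at 0.115.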

How the data were processed

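ChIP-seq of eGFP-tagged SMA-9 gave peak lists for 2 biological replicates and their pooled reads. Peaks were called with a control file, per the notes deposited with the lists. Neither the software for alignment and peak calling nor the cut-off of the thresholded list is given in the sources used here. The authors' deposited lists give a signal per peak (column 7, scale not stated), used for ranks, and a score (column 9, below 0 for many peaks), used as an alternative ranking. Control libraries and the ce10 lists were not used here.

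Summits, which are peak centres, were assigned to Ensembl release 115 genes with Python 3.11.15, numpy 2.4.6 and pandas 2.3.3. A base with several annotations counted as coding exon first, then as UTR, as exon of a noncoding RNA or pseudogene, and last as intron. Exact intervals (Clopper-Pearson) came from scipy 1.17.1. The assignment was tested on simulated data. The members, lists and motifs were chosen with earlier results of these data known. Genes are named by a rule: the 10 best pooled ranks, thresholded summits, up to 6 near noncoding RNA genes, up to 6 among the 5000 strongest of both replicates, the 3 highest and 3 lowest rank ratios, and the first 5 by name without a pooled summit; other members are named to account for a count. The background is all protein-coding genes or all pooled peaks, with no test.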

Additional observations from a re-analysis of the deposited data

How the results depend on the processing

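The values below are those that moved by more than 1 SD between the replicates or, for the share in both replicates, out of its exact interval. For the single replicate lists, the values of both are printed where either of them moved. For the share at the 5000 strongest peaks both replicates gave the same value, so there any change is listed and none is measured against a spread. Without either replicate (that is, in the other replicate's list), the share of members with a summit ran from 39.7% to 62.8%. For all genes it was 72.9% in replicate 1 and 73.9% in replicate 2. The share at the 5000 strongest peaks was 11.5% both times, against 20.7% in replicate 1 and 21.6% in replicate 2. The median best rank was 10191 in replicate 1, against 9893, and 13232 in replicate 2, against 9711. Summits near noncoding RNA genes ran from 8.20% to 14.6%, and the median distance ran from 454 to 752 bp. With 1 kb upstream, the share at the 5000 strongest was 7.69%, against 16.9% of all genes, whose windows are longer. The median rank was then 12761.5, against 10759, the median distance 450 bp and the share in both replicates 20.5%. With 2 kb upstream only, equal for every gene, the share at the 5000 strongest was 7.69%, against 9.95%, and that in both replicates 17.9%. At the start, the share was 17.9%, against 21.2%, and that at the 5000 strongest 3.85%, against 3.995%. The median rank there was 8808.5, against 14248.5, and the share in both replicates 7.69%. With only the 15000 strongest peaks of each list, the share was 23.1%, against 49.4% of all genes, whose windows are longer. The density was then 0.0964 per kb and the share in both replicates 15.4%. Ranking by column 9 gave 6.41% at the 5000 highest and a median rank of 11986, but that ranking runs nearly opposite to signal below the strongest peaks: 4660 of its 5000 highest (93.2%) are among the 15000 weakest by signal. By it the rpl-35 and rpl-3 sites ranked 102 and 197, rps-8 11317, and the other 7 of the 10 best sites 24718 to 28789. Noncoding RNA genes lay within 500 bp of 19.1% of summits and within 1000 bp of 25.5%. On the autosomes, an alternative chosen after seeing the data, 7.89% of members were at the 5000 strongest, against 18.9% of all autosomal genes. The cause of these shifts was not tested. No paired analysis was possible because there is 1 group. Read depth is unknown, so how far depth limits the weak peaks is unknown too.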
